A study of Mus musculus with 24 samples.

Results

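The genes described here are 6 of the 23234 genes in the tables, those of the CD73 and extracellular adenosine pathway: Nt5e, Entpd1, Cd38, Enpp1, Ada and Adora2a. They were chosen by their FPKM values (fragments per kilobase of transcript and per fixed number of mapped fragments, a level corrected for transcript length) in control and knockout libraries. Their differences between those libraries are therefore given as a description, without a test. The study sequenced RNA of B cells freshly isolated from the spleen of C57BL/6 mice, from control mice and from mice whose labels call them Tet2/Tet3-deficient; Tet2 and Tet3 are enzymes that oxidise 5-methylcytosine in DNA. Of the 24 samples, 12 are used: 3 control and 3 DKO (double knockout) libraries for each of the CD93-negative and the CD93-positive populations. The titles call the CD93-negative knockout libraries Tet DKO and the CD93-positive ones Tet KO, and both are called DKO here. CD93 marks the surface of immature, recently arrived splenic B cells and of plasma cells, and resting mature B cells lose it. The remaining 12 samples, CD93-negative subsets defined by CD23 and CD21, are not analysed here. Neither a Cre driver, an age nor a number of animals is given in the labels, and no agent is named for any group.

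Cells release ATP and NAD, and enzymes on their surface cut these molecules down to adenosine, which dampens many immune cells. Entpd1 (CD39) takes ATP and ADP to AMP, Enpp1 cuts ATP and ADP-ribose to AMP, and Cd38 turns NAD into ADP-ribose. Nt5e (CD73) then removes the last phosphate of AMP and so makes adenosine, Adora2a (the A2A receptor) senses it and raises cAMP, and Ada (adenosine deaminase) turns it into inosine. CD73 is also known as a surface marker of memory B cell subsets in the mouse, and CD39 and CD73 are both carried by regulatory T cells.

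TET enzymes act on cytosines that are followed by guanine, so the stretches just upstream of the start sites are shown for Nt5e and Ada, which were higher in every DKO library of both populations, and for Cd38, whose level was close to that of the controls in both. Each is the RefSeq sequence of the 250 bases before the start, in build GRCm38.p6, with CG pairs in capitals. The RefSeq table held 5 of the 6 genes, Entpd1 with 2 start sites, and Adora2a is named only.
Nt5e, chr9:88327359-88327608, plus strand: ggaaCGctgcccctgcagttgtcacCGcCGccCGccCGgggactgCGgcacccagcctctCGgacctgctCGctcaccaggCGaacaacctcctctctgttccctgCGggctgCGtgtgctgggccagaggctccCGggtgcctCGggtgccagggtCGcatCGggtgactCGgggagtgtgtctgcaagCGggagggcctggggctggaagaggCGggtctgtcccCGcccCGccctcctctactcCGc
Ada, chr2:163750240-163750489, minus strand: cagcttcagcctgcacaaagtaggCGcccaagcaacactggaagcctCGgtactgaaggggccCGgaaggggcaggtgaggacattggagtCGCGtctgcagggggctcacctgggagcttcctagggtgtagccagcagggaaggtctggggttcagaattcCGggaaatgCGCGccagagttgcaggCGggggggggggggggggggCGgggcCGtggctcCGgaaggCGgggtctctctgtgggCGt
Cd38, chr5:43868559-43868808, plus strand: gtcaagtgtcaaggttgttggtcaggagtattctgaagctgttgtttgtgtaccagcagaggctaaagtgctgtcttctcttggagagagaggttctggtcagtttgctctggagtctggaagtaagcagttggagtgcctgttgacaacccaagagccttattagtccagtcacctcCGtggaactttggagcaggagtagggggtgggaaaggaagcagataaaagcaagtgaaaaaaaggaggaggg
The Nt5e stretch held 21 CG pairs, and 16.3% of the 32851 stretches of the same length in the table held at least as many. The Ada stretch held 14, a number reached by 29.4%, and the Cd38 stretch held 1, a number reached by 92.1%, against a median of 6 over the table. Enpp1 had 17 and the 2 Entpd1 starts had 18 and 8. The files used here hold no methylation or binding data, so the CG content is a description of the sequence alone. Searched on both strands, the GC box letters GGGCGG matched 4 times upstream of Nt5e, with 2 overlaps among the matches, once upstream of Ada and Enpp1 and not upstream of Cd38 or Entpd1. Among all promoters 32.7% of stretches held at least 1. The hypoxia response core was searched as ACGTG, found in 16.6% of stretches, and as GCGTG, found in 28.2%. Nt5e had 1 match to GCGTG, Enpp1 had 1 to each form, 1 of the Entpd1 starts had 1 to GCGTG, and Ada and Cd38 had none.

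As a check of the labels, Cd93 itself was at 3.32 to 4.65 FPKM in the CD93-negative table and at 28.0 to 59.9 FPKM in the CD93-positive table. Within each table it was lower in every DKO-labelled library as deposited, with means of 4.34 and 3.62 FPKM and of 53.9 and 40.5 FPKM. It passed in neither (limma adjusted p = 0.33 and 0.704), and in CD93-positive cells the groups overlapped after the rescaling described below. The knockout labels could not be checked with gene-level FPKM: Tet2 was at 7.75 ± 1.25 FPKM (SD, n = 3) in control and 9.16 ± 0.917 in DKO-labelled CD93-negative libraries (limma adjusted p = 0.336), Tet3 at 18.0 and 15.4 (adjusted p = 0.36), and in CD93-positive cells the adjusted p was 0.731 and 0.222. After the rescaling described next, Tet3 was lower in both (adjusted p = 0.0018 and 0.015) and Tet2 in neither (0.858 and 0.638). One library stood apart. DKO replicate 3 of the CD93-positive cells had FPKM values summing to 309359, against 523898 to 597968 in the other 5, and 997 of 1096 olfactory receptor genes, which B cells are not known to use, above 0 against 39 to 580. Values that rest on it are also given after each library was rescaled so that the upper quartile of tested genes was equal, or without it. The 2 tables were scaled separately, so, apart from the check with Cd93, levels are compared within a table. In bulk RNA, more cells of a type and more RNA per cell cannot be told apart.

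Cd38 was the most abundant of the 6 transcripts in all 12 libraries, higher than 94.1 to 95.01% of the tested genes in each CD93-negative library and than 86.9 to 91.4% in each CD93-positive one. In CD93-negative control cells Enpp1 came next at 8.18 ± 0.847 FPKM (SD, n = 3), then Adora2a at 5.51 ± 1.10, Entpd1 at 4.34 ± 1.15, Ada at 2.53 ± 0.247 and Nt5e at 0.322 ± 0.0258. Only Adora2a and Entpd1 overlapped as neighbours in that order. In the DKO-labelled CD93-negative libraries Nt5e, at 7.75 ± 0.598 FPKM, overlapped Enpp1 at 7.51 ± 0.521, and Ada, Entpd1 and Adora2a overlapped one another at 5.90, 5.66 and 5.26 FPKM. In CD93-positive control cells Adora2a, Entpd1 and Ada overlapped at 6.25, 6.21 and 5.10 FPKM, above Enpp1 at 2.37 and Nt5e at 0.394. In the DKO-labelled CD93-positive libraries Ada was second at 12.7 ± 4.29 FPKM, and its range overlapped that of Entpd1 at 8.50 ± 2.58.

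**Figure D1:**
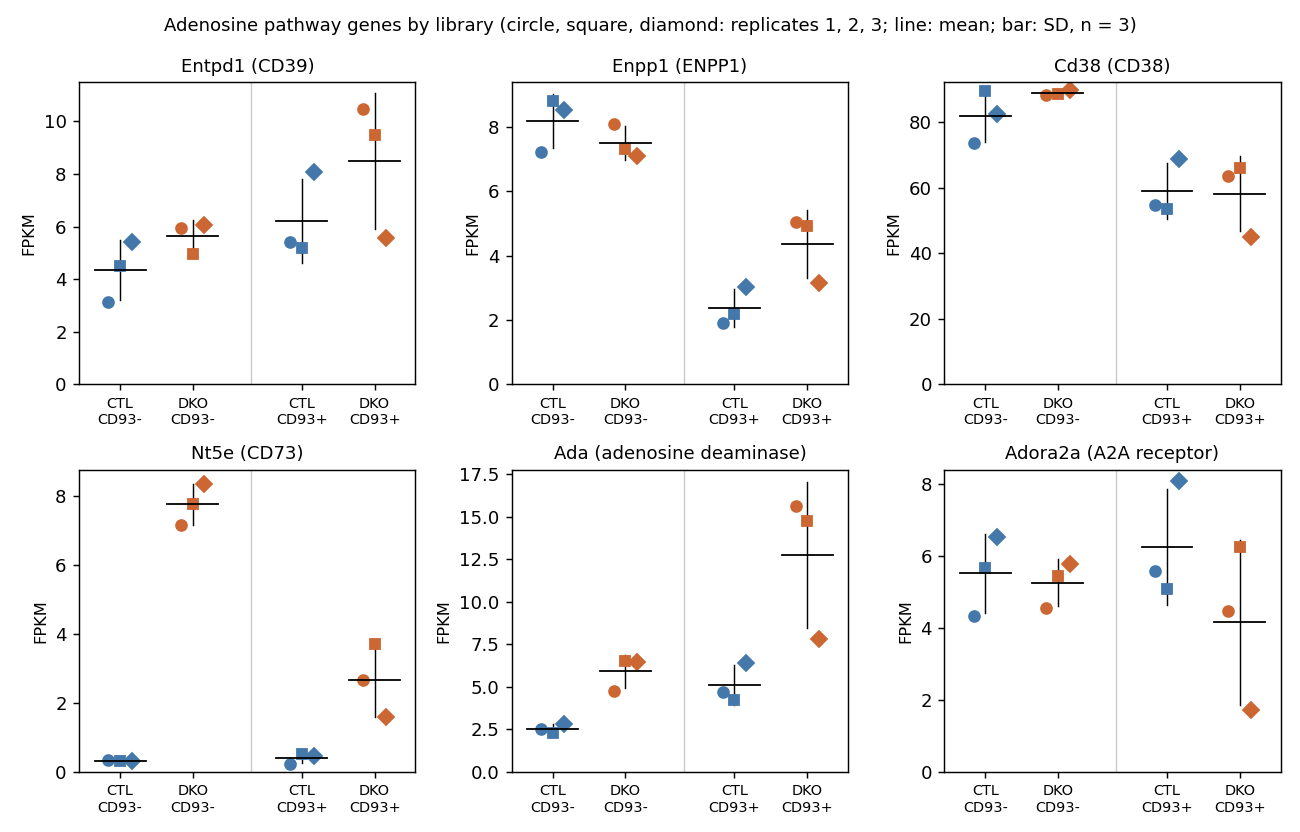
FPKM of the 6 genes in each of the 12 libraries, with control libraries in blue and DKO-labelled libraries in orange, the mean as a line and the SD as a bar (n = 3). Nt5e and Ada are above every control library in both populations, Enpp1 only in CD93-positive cells, and Entpd1, Cd38 and Adora2a overlap in both.

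Nt5e, the enzyme that makes adenosine, had the largest fold of the 6 genes in both populations. In CD93-negative cells the control libraries had 0.352, 0.308 and 0.307 FPKM and the DKO-labelled libraries 7.15, 7.76 and 8.34 FPKM. All DKO-labelled libraries were thus far above all controls, by 24.0-fold in the means and by 2.72 on the log2(FPKM + 1) scale. In CD93-positive cells the control libraries had 0.222, 0.502 and 0.459 FPKM and the DKO-labelled libraries 2.65, 3.71 and 1.58 FPKM, a 6.72-fold difference of the means and 1.35 on the log2 scale. The lowest DKO-labelled value, in replicate 3, was still above the highest control value. After upper quartile rescaling the folds were 20.3 and 7.56. Without replicate 3 of the DKO group the CD93-positive log2 difference was 1.58.

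The control level of Nt5e is low, and the fold depends on it. It was above 96.6 to 99.5% of the olfactory receptor genes in the control libraries, yet higher than only 0.462 to 1.16% of the tested genes. Nt5e entered the tested genes in both tables only through the DKO-labelled libraries, since no control library reached 1 FPKM. The log2 difference in CD93-negative cells was 4.22 with a pseudocount of 0.1 and 1.26 with a pseudocount of 5. In CD93-positive cells it was 2.45 and 0.50. With the larger pseudocount Ada exceeded it there, at 0.79. In rank, the log2 difference of Nt5e was exceeded by 0.31% of the tested genes in CD93-negative and by 0.889% in CD93-positive cells.

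Of the nearest protein-coding genes on either side, Snx14 did not share this difference, and Tbx18 was too low to be tested. Tbx18, a T-box transcription factor gene, stayed at or under 0.768 FPKM in every library. Snx14, which codes for a sorting nexin, was at 7.20 ± 1.01 FPKM in control libraries and 7.06 ± 0.562 in DKO-labelled CD93-negative libraries (adjusted p = 0.942), and at 3.84 and 4.42 FPKM in CD93-positive libraries (adjusted p = 0.939).

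Ada, which removes adenosine, also separated the groups in both populations, with a smaller fold. In CD93-negative cells it was at 2.51, 2.30 and 2.79 FPKM in control libraries and 4.76, 6.49 and 6.44 FPKM in DKO-labelled ones. That is 2.33-fold, 0.96 on the log2 scale, with no overlap. In CD93-positive cells it was at 4.67, 4.22 and 6.41 FPKM in control libraries and 15.6, 14.7 and 7.79 FPKM in DKO-labelled ones, 2.49-fold and 1.13 on the log2 scale. Replicate 3 was the lowest of its group here as well, and after upper quartile rescaling the DKO-labelled values drew together to 13.6 ± 0.251 against 4.75 ± 0.743, which is 2.85-fold. The Ada difference was exceeded by 4.71% of the tested genes in CD93-negative and 1.25% in CD93-positive cells. Its neighbour Pkig, an inhibitor of the cAMP-dependent kinase, was at 80.1 ± 11.9 FPKM in control libraries and 113 ± 10.2 in DKO-labelled CD93-negative libraries (log2 difference 0.50, SE 0.14, adjusted p = 0.0259). In CD93-positive cells Pkig did not pass (194 and 170 FPKM, adjusted p = 0.86). The gene on the other side of Ada, listed as Wisp2, stayed at or under 0.110 FPKM.

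Enpp1, which makes AMP from ATP and from ADP-ribose, differed in direction between the populations. In CD93-negative cells the control libraries had 7.22, 8.81 and 8.52 FPKM and the DKO-labelled ones 8.09, 7.33 and 7.09 FPKM, which overlap (log2 difference -0.11). In CD93-positive cells the control libraries had 1.90, 2.18 and 3.04 FPKM and the DKO-labelled ones 5.04, 4.94 and 3.15 FPKM. There every DKO-labelled library was above every control, though replicate 3 only just, by 1.84-fold in the means and 0.67 on the log2 scale. With upper quartile rescaling Enpp1 was lower in all 3 DKO-labelled CD93-negative libraries, by 1.27-fold, and higher in all 3 CD93-positive ones, by 2.16-fold. The opposite directions in the 2 populations were not tested.

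Entpd1, the CD39 enzyme upstream of CD73, overlapped between the groups in both tables. The CD93-negative values were 3.13, 4.50 and 5.40 FPKM in control libraries and 5.94, 4.97 and 6.06 FPKM in DKO-labelled ones, 1.30-fold. The CD93-positive values were 5.40, 5.17 and 8.07 FPKM in control libraries and 10.5, 9.48 and 5.57 FPKM in DKO-labelled ones, 1.37-fold. The overlap lies between control replicate 3 and DKO replicate 3, and after rescaling the CD93-positive groups were apart at 5.79 ± 1.11 and 9.17 ± 0.415, 1.58-fold.

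Cd38, the NAD glycohydrolase, had nearly the same level in both groups. In CD93-negative cells it was at 73.7, 89.3 and 82.4 FPKM in control libraries and 88.4, 88.5 and 89.8 FPKM in DKO-labelled ones, 1.09-fold. In CD93-positive cells it was at 54.6, 53.6 and 68.8 FPKM in control libraries and 63.5, 66.0 and 45.0 FPKM in DKO-labelled ones, 0.986-fold. Its sign turned with the scaling in both populations: rescaled to a common upper quartile the log2 differences were -0.10 and 0.21, in place of 0.12 and -0.031. Bst1, the paralog beside Cd38 that carries the same enzyme activity, was at 0.402 and 0.822 FPKM in CD93-negative cells, under the level tested, and at 21.3 ± 4.15 and 17.7 ± 5.41 FPKM in CD93-positive cells (adjusted p = 0.805).

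Adora2a, the receptor, overlapped in both populations. The CD93-negative values were 4.34, 5.68 and 6.52 FPKM in control libraries and 4.54, 5.45 and 5.78 FPKM in DKO-labelled ones (log2 difference -0.048, and -0.24 after rescaling, where the groups no longer overlapped). The CD93-positive values were 5.57, 5.09 and 8.07 FPKM in control libraries and 4.48, 6.26 and 1.72 FPKM in DKO-labelled ones. The log2 difference there was -0.58 with all libraries and -0.18 without DKO replicate 3, the lowest of the 6. The other adenosine receptors, Adora1, Adora2b and Adora3, were too low to be tested in either table, with Adora3 the highest at up to 1.62 FPKM, so Adora2a was the only adenosine receptor gene to reach the tested set.

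Counted over the 6 genes, 2 were above and 0 below all control libraries in CD93-negative cells, where 31.5% of all tested genes were above and 7.43% below. In CD93-positive cells 3 were above and 0 below, where 2.94% of all tested genes were above and 19.0% below. The scaling of the tables moves these shares. After upper quartile rescaling 2 were above and 3 below in CD93-negative cells (21.4% and 33.3% of all tested genes) and 4 above and 0 below in CD93-positive cells (20.9% and 22.0%). The median log2 difference of all tested genes was 0.11 in CD93-negative and -0.22 in CD93-positive cells as deposited, and -0.083 and -0.011 after rescaling. Nothing is read from these counts, since the genes were chosen with both comparisons known.

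**Figure D2:**
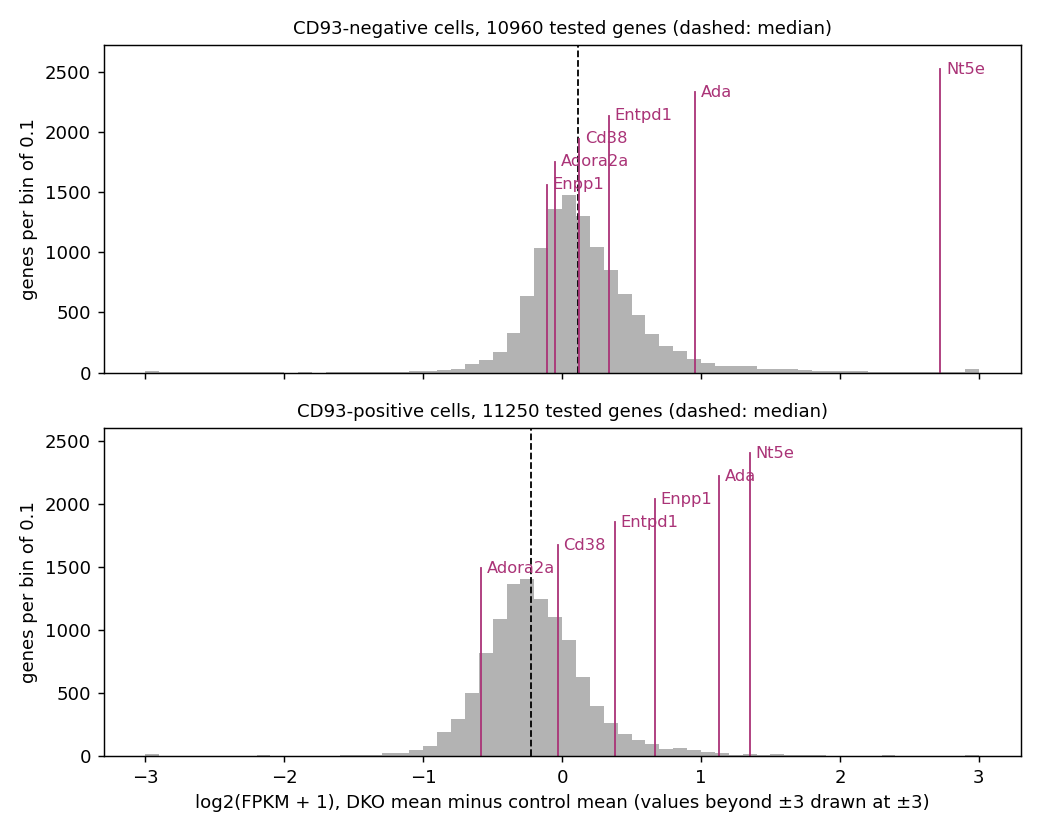
Histogram of the log2(FPKM + 1) difference, DKO minus control, over all tested genes in bins of 0.1, with the 6 genes as vertical lines and the median as a dashed line. Nt5e lies at 2.72 and Ada at 0.96 in the right tail of CD93-negative cells (upper), and Nt5e, Ada and Enpp1 at 1.35, 1.13 and 0.67 in CD93-positive cells (lower).

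Ratios between 2 of the genes within a library do not depend on how the library was scaled. The ratio of Nt5e to Entpd1, the 2 steps from ATP to adenosine, was 0.113, 0.0684 and 0.0568 in CD93-negative control libraries and 1.20, 1.56 and 1.38 in DKO-labelled ones. In CD93-positive cells it was 0.0411, 0.0970 and 0.0568 in control and 0.253, 0.392 and 0.283 in DKO-labelled libraries. DKO replicate 3 lies inside the range of its group in this ratio. The ratio of Nt5e to Ada, production against removal, was 0.128 ± 0.0161 in control and 1.33 ± 0.156 in DKO-labelled CD93-negative libraries, and 0.0794 ± 0.0364 and 0.208 ± 0.0413 in CD93-positive libraries. Neither ratio overlapped between the groups in either population. Both hold Nt5e, whose own groups were already apart, so they add no separate result. The ratio of Enpp1 to Cd38, 2 steps from NAD to AMP, ran from 0.0979 to 0.103 in control and from 0.0790 to 0.0915 in DKO-labelled CD93-negative libraries. In CD93-positive cells it ran from 0.0349 to 0.0442 in control and from 0.0701 to 0.0794 in DKO-labelled libraries. The groups were apart in both populations, with the DKO-labelled libraries lower in the first and higher in the second. Of the other ratios formed without Nt5e, Ada to Entpd1 and Entpd1 to Cd38 overlapped in CD93-negative cells and were higher in DKO-labelled CD93-positive libraries. Ada to Cd38 was higher in the DKO-labelled libraries of both populations. Adora2a to Cd38 overlapped in CD93-negative cells and was lower, though only just, in all DKO-labelled CD93-positive libraries.

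**Figure D3:**
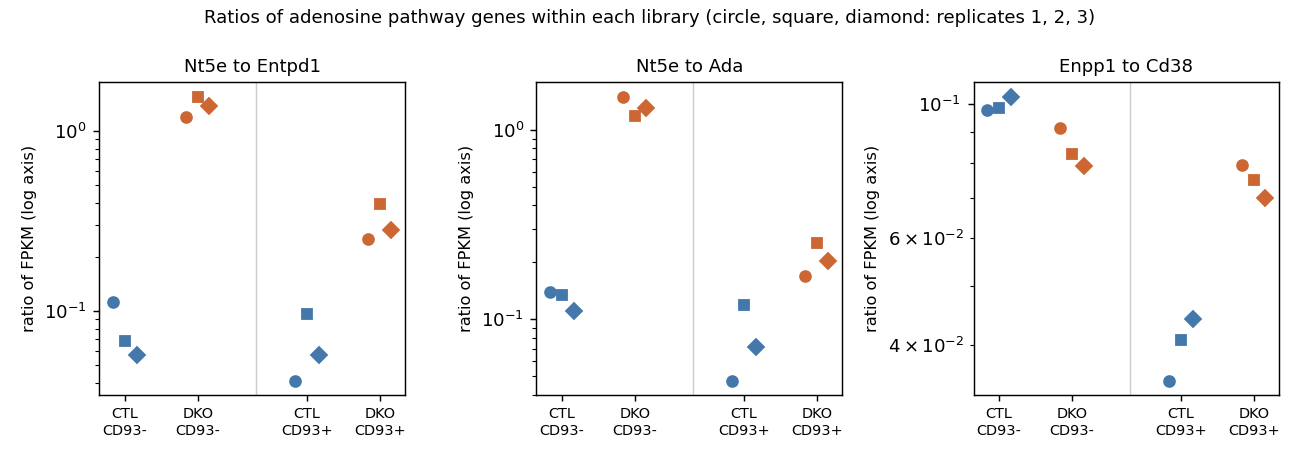
Ratio of FPKM values within each library on a log axis for Nt5e to Entpd1, Nt5e to Ada and Enpp1 to Cd38, control libraries in blue and DKO-labelled libraries in orange. The first 2 ratios are higher in every DKO-labelled library of both populations, while Enpp1 to Cd38 is lower in CD93-negative (0.0790 to 0.0915) and higher in CD93-positive cells (0.0701 to 0.0794).

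Around these 6 genes, 95 other genes of adenosine and nucleotide handling were listed, and their tests come from a limma fit over each whole table. In CD93-negative cells 58 were tested, and 11 rose and 4 fell. In all 25.9% of them passed, against 21.5% of all 10960 tested genes, of which 18.7% rose and 2.79% fell. The median log2 difference of the 58 was 0.046, against 0.11 for all tested genes. After upper quartile rescaling 12 rose and 15 fell, against 17.1% and 23.8% of all genes. The balance of directions also moved with single libraries: without control replicate 1, 13 rose and 10 fell, and without DKO replicate 2 or DKO replicate 3, 9 rose and 1 fell. In CD93-positive cells 62 were tested, 0 rose and 1 fell, against 1.67% and 1.54% of all 11250 genes. At an unadjusted p under 0.05 there were 7 of the 62, 11.3%, against 11.9% of all tested genes. After rescaling 8 rose and 7 fell, against 11.4% and 9.34% of all genes, and without DKO replicate 3 alone, 3 rose and 0 fell. The number of calls in CD93-positive cells thus depended on that library and on the scaling. Counts of the single pathway lists below stand against these same shares of all tested genes.

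Of 5 tested genes of nucleotide hydrolysis in CD93-negative cells, Alpl alone passed with the scaling as deposited, and 1 rose and 3 fell after rescaling. In CD93-positive cells 0 of 5 passed as deposited, and 2 rose and 1 fell after rescaling. Alpl codes for tissue-nonspecific alkaline phosphatase, which, like CD73, can take AMP to adenosine. Its control libraries had 3.60, 2.63 and 2.76 FPKM and the DKO-labelled ones 13.01, 11.2 and 12.8 FPKM, 4.11-fold (log2 difference 1.74, SE 0.14, adjusted p = 5.04e-06, and 0.000685 after rescaling). In CD93-positive cells Alpl was at 6.14, 7.05 and 10.8 FPKM in control libraries and 22.5, 19.8 and 12.8 FPKM in DKO-labelled ones. The groups did not overlap, and the gene did not pass as deposited but passed after rescaling (adjusted p = 0.0605, and 0.00458 rescaled). Entpd4, an intracellular relative of CD39 and the most abundant of the list in CD93-negative cells, was at 14.1 and 11.9 FPKM (adjusted p = 0.327). Acpp, another ectonucleotidase that can make adenosine, did not exceed 0.750 FPKM in any library.

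Of 10 tested genes of adenosine removal and purine salvage, 5 rose and 1 fell in CD93-negative cells (5 and 2 after rescaling). Of all tested genes 18.7% rose and 2.79% fell there. The list's median log2 difference was 0.45 against 0.11 for all tested genes. Ahcy, which splits S-adenosylhomocysteine into homocysteine and adenosine, was at 20.5 ± 3.40 FPKM in control libraries and 34.8 ± 1.73 in DKO-labelled libraries (log2 difference 0.74, adjusted p = 0.00286). Pnp, which breaks down the inosine that Ada makes, was at 9.42 ± 0.432 and 14.5 ± 0.718 FPKM (0.57, adjusted p = 0.00595), and its near copy Pnp2 rose as well. How reads were shared between Pnp and Pnp2 is uncertain. Aprt (29.4 and 45.0 FPKM, adjusted p = 0.00877) and Hprt (34.1 and 50.1 FPKM, adjusted p = 0.0183), which recycle adenine and hypoxanthine, rose. Ampd3, which deaminates AMP, fell from 6.64 ± 1.29 to 3.32 ± 0.109 FPKM, by 0.81 on the log2 scale (adjusted p = 0.00265). Adk, the kinase that returns adenosine to AMP, was at 3.98 and 4.74 FPKM (adjusted p = 0.437). In CD93-positive cells 0 of 10 passed with the scaling as deposited, and 3 rose and 1 fell after rescaling.

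Of the NAD list, Nampt, the rate-limiting enzyme of NAD salvage, was the only one of 6 tested genes to pass in CD93-negative cells as deposited, while 1 rose and 2 fell after rescaling. It was at 9.70 ± 1.49 FPKM in control libraries and 18.1 ± 1.08 in DKO-labelled libraries (log2 difference 0.85, adjusted p = 0.00107). Parp1, an NAD-consuming polymerase and the most abundant of the list, was at 89.5 and 77.3 FPKM (adjusted p = 0.328). In CD93-positive cells Nampt was at 6.21 and 10.4 FPKM and did not pass (adjusted p = 0.476, and 0.00472 rescaled). Art4, a gene of the ADP-ribosyltransferase family known from the red cell surface, was the 1 pathway gene that fell there, from 8.33 ± 3.91 to 3.20 ± 1.53 FPKM (log2 difference -1.13, adjusted p = 0.015). Its call was lost after rescaling (adjusted p = 0.117), and the groups overlapped. The call was also lost without control replicate 1, without control replicate 2 and without DKO replicate 3, where the log2 differences were -0.99, -0.86 and -0.78. Erythroid marker transcripts moved with it: their sum was 15085 to 64384 FPKM in control libraries and 3314 to 15698 FPKM in DKO-labelled CD93-positive libraries, and 6 of 8 fell, with 0 after rescaling. Their part in the Art4 difference was not tested.

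Of 8 tested intracellular 5′-nucleotidase genes, 2 rose in CD93-negative cells, where 18.7% of all tested genes rose. Nt5c3, a pyrimidine 5′-nucleotidase, was at 10.99 ± 1.40 FPKM in control libraries and 18.2 ± 0.994 in DKO-labelled libraries (log2 difference 0.68, adjusted p = 0.00312). Nt5dc2, a less studied member of the family, was at 0.758 ± 0.0555 and 2.43 ± 0.664 FPKM (0.95, adjusted p = 0.00203). Its control libraries were under 1 FPKM, so Nt5dc2 entered the tested genes only through the DKO-labelled libraries, and its p-value adds no support. Nt5c, the most abundant of the list, was at 67.1 and 72.3 FPKM (adjusted p = 0.61). In CD93-positive cells 0 of 8 passed with either scaling, and Nt5c3 was at 43.1 ± 16.9 and 23.8 ± 11.2 FPKM.

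Of 6 tested nucleoside transporter genes in CD93-negative cells, 1 passed with either scaling. Slc28a2, the sodium-coupled purine nucleoside carrier, fell from 43.8 ± 3.75 to 30.6 ± 0.184 FPKM (log2 difference -0.50, adjusted p = 0.0128). In CD93-positive cells its groups were also apart, at 17.9 ± 2.35 and 9.98 ± 3.56 FPKM, with an adjusted p of 0.296 (0.00999 rescaled). Slc29a1, the equilibrative transporter ENT1 and the most abundant transporter in CD93-positive cells, was at 38.1 and 39.3 FPKM there (adjusted p = 0.982). Of 3 tested genes of ATP release, Vdac1, which codes for a mitochondrial outer membrane channel, rose in CD93-negative cells from 31.0 ± 5.84 to 44.9 ± 3.74 FPKM (adjusted p = 0.0269). Panx1, the surface channel through which ATP leaves cells, was at 15.4 and 20.7 FPKM (adjusted p = 0.0533, and 0.0293 rescaled). Of the P2 receptor genes, which sense ATP and other nucleotides, 0 of 4 tested in CD93-negative and 0 of 5 in CD93-positive cells passed as deposited, and 1 and 0 fell after rescaling. The most abundant of them, P2ry10, was at 28.5 and 32.8 FPKM in CD93-negative cells (adjusted p = 0.289).

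Downstream of the receptor, 1 of 16 tested genes of cAMP signalling rose and 2 fell in CD93-negative cells, where 18.7% and 2.79% of all tested genes did. After rescaling 1 rose and 6 fell, against 17.1% and 23.8% of all tested genes. Prkar2a, a regulatory subunit of the cAMP-dependent kinase, was at 2.13 ± 0.789 FPKM in control libraries and 4.58 ± 0.812 in DKO-labelled libraries (log2 difference 0.86, adjusted p = 0.00851). Pde4a and Pde7a, phosphodiesterases that break down cAMP, fell from 5.72 to 3.59 FPKM (adjusted p = 0.0135) and from 40.7 to 28.9 FPKM (adjusted p = 0.0267). Gnas, the stimulatory G protein subunit to which A2A couples and the most abundant gene of the list, was at 292 ± 33.6 and 359 ± 14.5 FPKM (adjusted p = 0.148). In CD93-positive cells 0 of 19 passed as deposited, and 1 rose and 4 fell after rescaling. Some calls of CD93-negative cells were lost when 1 library was left out, with little change in the log2 difference. Aprt no longer passed without DKO replicate 3 (log2 difference 0.55), Hprt without DKO replicate 2 (0.49) or 3 (0.48), and Vdac1 without DKO replicate 2 (0.50) or 3 (0.50). Pde4a no longer passed without DKO replicate 2 (-0.51) or 3 (-0.52), and Slc28a2 without control replicate 3 (-0.48) or any one DKO library (-0.49 to -0.50). Pde7a no longer passed without control replicate 2 (-0.37) or 3 (-0.47) or any one DKO library (-0.45 to -0.49).

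**Figure D4:**
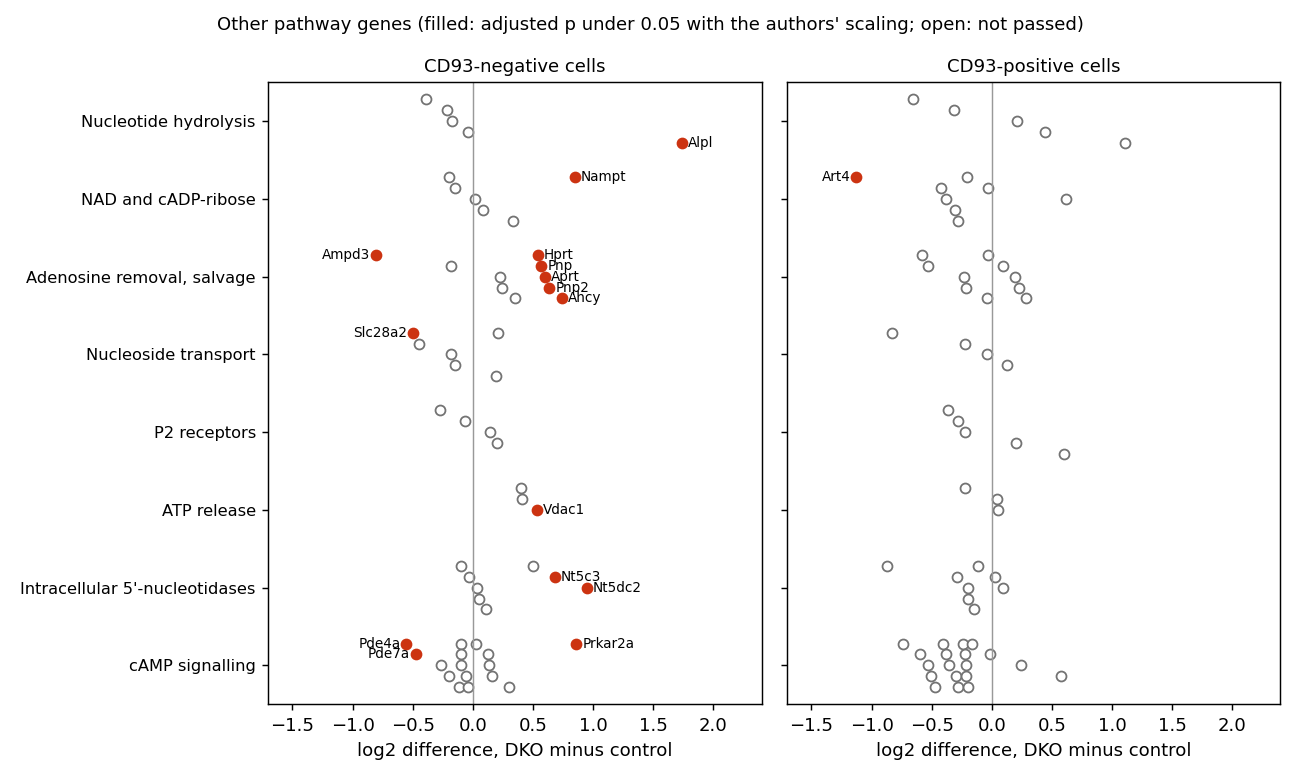
Log2(FPKM + 1) difference, DKO minus control, of the other tested pathway genes by list, with filled points for an adjusted p under 0.05 with the authors' scaling. In CD93-negative cells 11 rose and 4 fell, with Alpl the farthest out at 1.74, and in CD93-positive cells only Art4 passed.

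For each of the 6 genes, the 3 genes of most similar pattern were found among 9287 genes tested in both tables, by the mean of 2 Pearson correlations of log2(FPKM + 1), one over the 6 libraries of each table. Libraries of a group share their genotype, and the library scale varies also within a group. A high value thus says mainly that 2 genes separate the groups, or follow the scale, alike. For Nt5e these were Zbtb32, a transcriptional repressor (mean r 0.995), Serpinc1, which codes for antithrombin (0.994), and Gbp10, a guanylate-binding protein gene (0.993). Zbtb32 was at 1.98 FPKM in control libraries and 12.6 in DKO-labelled CD93-negative libraries and at 1.25 and 6.51 FPKM in CD93-positive ones, and Gbp10 at 0.900 and 17.7 FPKM and at 0.493 and 3.87 FPKM. For Ada they were Ass1 (0.984), Prdx4 (0.982) and Hspa13 (0.979), and for Entpd1 they were Dpagt1 (0.963), Sirpa (0.962) and Nmd3 (0.956). For Cd38 they were Selplg (0.982), Apoa1bp (0.981) and Anxa6 (0.978), and for Adora2a they were Sdccag3 (0.971), Zfp444 (0.970) and Ttc5 (0.947). Enpp1 had the least similar companions, Entpd4 (0.861), Rpap2 (0.835) and Inpp4b (0.828), and 0 genes reached 0.9 in both tables, against 115 for Nt5e, 180 for Ada and 317 for Cd38. Among the 6 genes themselves, Nt5e and Ada were the most alike (mean r 0.956). Enpp1 followed Nt5e in CD93-positive cells (r 0.931) and not in CD93-negative cells (r -0.53).

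Transcripts that mark cell types and B cell states known to carry CD73, CD39 or Ada also moved between the groups. The counts here and for T cells below stand against 18.7% of all tested genes that rose in CD93-negative and 1.67% in CD93-positive cells. After rescaling these shares were 17.1% and 11.4%. The shares that fell were 2.79% and 1.54% as deposited, and 23.8% and 9.34% after rescaling. Of the plasma cell list 4 of 7 tested genes rose in both populations with either scaling, and 1 fell in CD93-positive cells after rescaling. Igj, the antibody joining chain, was at 7.79 and 208 FPKM in CD93-negative cells (adjusted p = 3.3e-08) and at 34.7 and 923 FPKM in CD93-positive cells (adjusted p = 4.86e-25). The list's summed level was 118 to 164 FPKM in control libraries and 387 to 430 in DKO-labelled CD93-negative libraries, and 199 to 254 against 874 to 1505 in CD93-positive libraries. Of the germinal center list 6 of 8 tested genes rose and 1 fell in CD93-negative cells, Mef2b from 3.05 to 16.9 FPKM (adjusted p = 4.55e-07) and Basp1 from 1.61 to 9.58 FPKM (adjusted p = 1.05e-06). In CD93-positive cells 2 of 8 rose, Mef2b and Basp1. After rescaling 6 germinal center genes rose and 2 fell in CD93-negative cells, and 3 rose and 0 fell in CD93-positive cells. Of the memory B cell list Zbtb32 and Cd80 rose and Pdcd1lg2 fell in CD93-negative cells. In CD93-positive cells Zbtb32 alone passed of 2 tested as deposited, and 1 rose and 1 fell after rescaling. Their part in the Nt5e and Ada differences was not tested.

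T cell transcripts were present in both populations. Their summed level over 12 genes was 34.1 to 58.0 FPKM in control libraries and 63.3 to 68.8 in DKO-labelled CD93-negative libraries, where 6 of 11 tested genes rose (5 after rescaling), Cd3g from 1.65 to 4.52 FPKM (adjusted p = 0.00593) and Cd8a from 1.98 to 4.87 FPKM (adjusted p = 0.00129). In CD93-positive cells the sum was 106 to 131 against 63.4 to 210 FPKM, and 0 of 11 passed as deposited and 1 rose after rescaling. Of the regulatory T cell list 3 of 5 tested genes rose in CD93-positive cells with either scaling, Tnfrsf4 from 1.03 to 5.75 FPKM (adjusted p = 1.29e-06), Ctla4 from 0.638 to 3.44 FPKM (adjusted p = 1.23e-05) and Foxp3 from 0.290 to 0.631 FPKM in control libraries to 1.36 to 4.22 FPKM in DKO-labelled ones (adjusted p = 7.76e-06). No control library reached 1 FPKM for Foxp3, so Foxp3 entered the tested genes only through the DKO-labelled libraries. Its p-value and its place among the 3 genes therefore add no support. The control mean of Ctla4, 0.638 FPKM, was under 1 FPKM, so control libraries alone could not have brought it into the tested genes. The p-value of Ctla4 and its place among the 3 genes add no support either. The summed levels of the regulatory T cell list overlapped, at 28.3 to 32.9 FPKM in control libraries and 22.0 to 44.4 in DKO-labelled libraries. In CD93-negative cells Foxp3 was at 0 to 0.353 FPKM in the 6 libraries, under the level tested, and 0 of 3 tested genes of the list passed. The part of T cells in the values of Nt5e, Entpd1 and Ada was not tested.

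The counts of the remaining lists stand against 18.7% of all tested genes that rose in CD93-negative and 1.67% in CD93-positive cells. The shares that fell were 2.79% and 1.54%. Rescaled, 17.1% and 11.4% of all tested genes rose, and 23.8% and 9.34% fell. Of the NK cell genes 1 of 8 tested rose in CD93-negative cells (Gzmb) and 2 of 7 in CD93-positive cells (Gzmb and Nkg7), the latter 4 after rescaling. Macrophage and monocyte genes gave 2 of 4 higher in CD93-negative cells, C1qb from 0.750 to 4.22 FPKM and Emr1 from 2.103 to 4.54 FPKM, and 0 of 7 in CD93-positive cells. C1qb had a control mean under 1 FPKM, so control libraries alone could not have brought it into the tested genes. Its call adds no support. Dendritic cell genes gave 1 of 5 higher (Zbtb46) and 0 of 4, with 2 of the 5 lower after rescaling, stroma and endothelium 1 of 3 higher (Kdr) and 0 of 2, with 1 of the 3 lower after rescaling, and platelet genes were tested only in CD93-positive cells, with 0 of 3. Erythroid genes rose in CD93-negative cells in 4 of 6 (2 after rescaling), with a summed level of 42.7 to 60.2 FPKM in control libraries and 171 to 198 in DKO-labelled libraries. Neutrophil genes gave 0 of 3 in CD93-negative cells and 1 of 7 lower in CD93-positive cells (Ltf), with 4 after rescaling, and summed levels of 1343 to 1876 against 381 to 1230 FPKM. B cell genes remained the most abundant of the lymphocyte lists, at 3462 to 4307 against 3714 to 3879 FPKM in CD93-negative and 3741 to 4951 against 1736 to 3632 FPKM in CD93-positive libraries. The receptor genes Cr2 (CD21) and Fcer2a (CD23), chosen after their values were seen because the labels name both proteins, were lower in DKO-labelled libraries: Cr2 from 104 to 43.0 FPKM (adjusted p = 2.97e-05) and Fcer2a from 341 to 167 FPKM (adjusted p = 0.000176) in CD93-negative cells. Which B cell subsets make up each library, and their part in the Nt5e and Ada levels, was not tested.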

How the data were processed

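RNA of splenic B cells was sequenced after strand-specific library preparation (SureSelect), per the labels' protocols. Bowtie2 2.1.0, TopHat2 2.0.8 and Cufflinks 2.1.1 with build mm9 are named in the submitters' processing notes. The deposited values are FPKM per gene in 2 separately scaled tables of 23234 genes. They hold no read counts, so depth is unknown and its part in the precision, above all of low values, cannot be given. A further 6 columns for CD93-positive cells repeat used columns cell for cell and were left out.

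Each table was fitted on its own with limma 3.58.1 in R 4.3.3 (eBayes with trend, two-sided) on log2(FPKM + 1), over genes that reached 1 FPKM in 3 or more libraries, with Benjamini-Hochberg adjustment over all of them and a threshold of 0.05. "Rose" and "fell" mean past it, and a log2 change is on the log2(FPKM + 1) scale, which understates low genes. "Rescaled" means each library brought to a common upper quartile (percentile 75) of tested genes. No label says that replicates are separate animals, so p-values measure the spread between these libraries. The 6 genes and all lists were chosen with earlier results of these data known. Named genes are the 6 genes, up to 4 called genes per pathway list by size of change and its most abundant gene, the 3 nearest patterns, and up to 2 called genes per marker list. Where more are named, as for regulatory T cells, they were chosen after their values were seen. Neighbours, taken among protein-coding genes, and promoters come from RefSeq (GRCm38.p6, not the authors' build). Alternatives were pseudocounts, filters, scalings, no trend, a replicate block and leaving out each library.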

Additional observations from a re-analysis of the deposited data

Results flagged for a closer look

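Enpp1 and Nt5c3 differed from their control means in opposite directions in the 2 populations. Each DKO-labelled library was set against the control mean on the log2(FPKM + 1) scale. In CD93-negative cells all 3 Enpp1 values were below the control mean, though they overlapped the single control libraries, with a mean difference of -0.11 (-0.108; range -0.18 to -0.01), and in CD93-positive cells all 3 were higher, by 0.67 (0.666; range 0.31 to 0.85). Nt5c3 was higher in all 3 CD93-negative libraries, by 0.68 (range 0.62 to 0.76), and lower in all 3 CD93-positive ones, by -0.87 (range -1.79 to -0.35). It did not pass in CD93-positive cells with either scaling. The median log2 difference of all tested genes there was -0.22. These values are as deposited, without rescaling of DKO replicate 3, the library with the lowest FPKM sum. In both genes the difference between the populations itself was not tested.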

How the results depend on the processing

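All 10 alternatives left the sign of the log2 difference of Nt5e, Ada, Entpd1 and Enpp1 as it was in both populations, and of Adora2a in CD93-positive cells. That of Cd38 kept its sign in 8 (CD93-negative) and 6 (CD93-positive), and that of Adora2a in CD93-negative cells in 8. The 16 pathway gene calls gave 191 values on the same side of the threshold, 30 that no longer passed and 0 reversed.

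Over all CD93-negative genes 2351 passed; 4478 did after upper quartile rescaling and 4142 after quantile normalization. Of the other pathway genes 15 passed, and 27 under either. Leaving out 1 library gave 1430 to 3253 genes over all and 10 to 23 pathway genes. Over all CD93-positive genes 361 passed: 2331 after upper quartile rescaling, 2063 after quantile normalization, 168 with a filter of 5 FPKM, 16 with no filter and 188 with no trend. Pathway genes there numbered 1, against 15, 11, 0, 0 and 0. Leaving out 1 library gave 163 to 675 genes, the most without DKO replicate 3, and 0 to 3 pathway genes. The cause was not tested.

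Replicate numbers are shared between groups. Deviations of same-numbered libraries correlated at 0.024, -0.113 and -0.086 (CD93-negative) and 0.166, -0.113 and -0.139 (CD93-positive), so the numbers were not taken as pairs. With a replicate block 237 CD93-positive genes and 0 pathway genes passed. Depth is unknown, and control values of Nt5e under 1 FPKM limit its fold.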
